A study of Bos indicus x Bos taurus with 20 samples.

Results

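The transcripts described here encode proteins of cell adhesion, tight junctions, apical-basal polarity and Hippo signalling in cleaving bovine embryos. They form a list of 38 genes, made up of 6 adhesion genes, 11 tight junction genes, 13 polarity genes and 8 Hippo genes, and were found by symbol in a count table of 30675 genes. All 38 were present, and 35 passed the filter on low counts. The embryos carried a WT genotype and came from crosses of Bos indicus with Bos taurus. As zygotes they received either METTL7A mRNA made in vitro or vehicle, and the vehicle groups are called Control. Whole embryos were collected at the 2-cell and 8-cell stages, with 2 libraries in each of the 4 groups, which are 8 of the 20 libraries of the study. No group received a different mRNA, so effects of METTL7A and of mRNA injection itself cannot be told apart. METTL7A is a membrane-bound methyltransferase of the endoplasmic reticulum and lipid droplets. The number of embryos in a library is not given in the sources used here. The inner cell mass and trophectoderm libraries of the study were not analysed here.

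Cells of an early mammalian embryo adhere through cadherins, whose tails bind catenins that connect to actin. At compaction and afterwards, outer cells gain an apical domain with PAR, atypical protein kinase C, Crumbs and ezrin proteins, a basolateral domain with Scribble, Dlg and Lgl proteins, and tight junctions of claudins, occludin and ZO scaffolds that later let the trophectoderm hold fluid. In mouse embryos, angiomotins and NF2 activate the LATS kinases in inner cells, and LATS keeps the coactivators YAP1 and WWTR1 out of the nucleus, while in outer cells these enter it and drive trophectoderm genes with TEAD4. Early embryos rely largely on transcripts inherited from the oocyte, and in cattle the major activation of the embryonic genome takes place around the 8-cell stage.

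Libraries held 15781017 to 20737404 counts over named genes. METTL7A stood at 19.06 and 14.19 CPM, the counts of a gene scaled to a common library size, in the Control 2-cell libraries and 47720 and 42840 in the injected ones, and at 7.356 and 7.572 CPM in the Control 8-cell libraries against 18750 and 38110 in the injected ones. All CPM values use library sizes scaled by TMM factors, and paired values are given in the order replicate 1, replicate 2. Oocyte and cleavage markers were present throughout, with 13 of 13 above 1 CPM in all 8 libraries. Their presence does not test the stage labels or the absence of other cells. Control 8-cell replicate 1 stood apart from the rest. Its 10 fibroblast and matrix markers summed to 5292 CPM, against 1057 in Control 8-cell replicate 2, 131 and 137 in the METTL7A 8-cell libraries and between 78.5 and 145 in 2-cell embryos. LUM, lumican, made most of these Control sums, at 4782 and 667 CPM, while DCN, at 41.6 CPM against 56.3, and POSTN, at 120.2 CPM against 188, were lower in replicate 1 than in replicate 2. Its 10 hypoblast markers summed to 4041 CPM, against 530.0 in the other Control 8-cell library and 60.7 and 48.8 in the METTL7A 8-cell libraries, although the hypoblast markers SOX17 and HNF4A were at 0 in both Control 8-cell libraries. Its 12 cumulus and granulosa markers summed to 1037 CPM, against 219 and then 141 and 139.7. In 2-cell embryos this list summed to between 343 and 388 CPM, mostly from HAS2 and STAR, so only Control 8-cell replicate 1 was above the 2-cell range. Within Control 8-cell, HAS2 (27.9 CPM against 74.0), CYP19A1 (0.674 against 1.82) and STAR (33.2 against 34.9) were lower in replicate 1 than in replicate 2. The other markers of this list were higher in Control 8-cell replicate 1. Its 10 trophectoderm markers summed to 542 CPM, against 95.1 and then 76.5 and 87.8, of which the keratin KRT8 was 476 CPM against 33.4 in its partner, while CDX2 (0.786 CPM against 2.23) and GATA3 (11.1 CPM against 21.2) were lower there than in the other Control 8-cell library. Its 6 epiblast and inner cell mass markers summed to 938 CPM, against 196 and then 119.9 and 169.6. SPP1 made 897 CPM of that sum, while NANOG, SOX2, POU5F1 and LIN28A were lower there than in the other Control 8-cell library. The oocyte and cleavage markers were lowest in Control 8-cell replicate 1, at 14938 CPM, against 28082 in the other Control 8-cell library and 43849.8 and 41852 with METTL7A. The part of these markers in the results was not tested, and results that rest on this library are given with and without it. Embryos were measured in bulk, so fewer cells of a type and less RNA per cell cannot be told apart.

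The 38 genes together took 0.716% ± 0.00661 (SD, n = 2) of all gene counts in Control 2-cell embryos and 0.665% ± 0.0269 in METTL7A 2-cell embryos. At the 8-cell stage their share was 0.298% ± 0.0737 in Control and 0.314% ± 0.00585 in METTL7A. The 8-cell shares were thus below the 2-cell shares in both treatments, with no overlap between libraries. The share weighs genes by their counts. In Control 2-cell replicate 1, EZR alone held 52795 of the 149537 counts of the 38 genes, and it was not called between stages. CLDN3, CLDN4 and CLDN7, claudins of epithelial tight junctions, did not pass the filter, with at most 13 counts in a library. JUP, TJP3 and CLDN6 passed although both 2-cell groups lay under the filter's 0.567 CPM, and PARD6G passed although the METTL7A 8-cell group lay under it, so these 4 passed only through the groups where they were high.

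**Figure D1:**
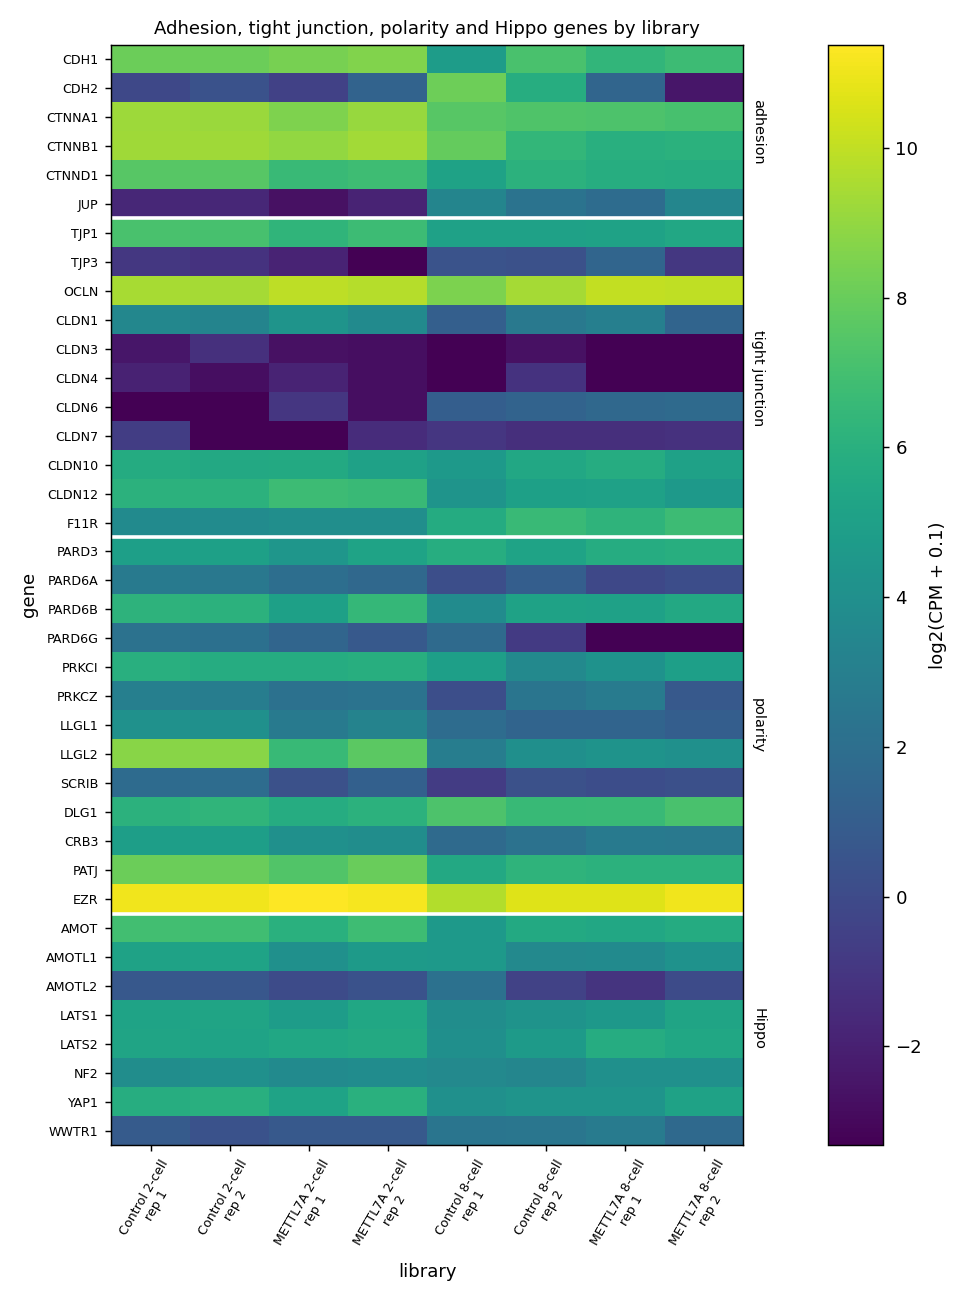
Level of the 38 genes (rows, grouped by role) in the 8 libraries (columns), as log2(CPM + 0.1) in colour. Most adhesion, polarity and Hippo genes are darker, that is lower, in the 4 8-cell libraries, while JUP, CLDN6 and F11R are lighter there, and CDH2 is bright in the 2 Control 8-cell libraries, at 287 and 56.4 CPM.

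From the 2-cell to the 8-cell stage, most of the changes called in these genes were falls. In Control embryos, 17 of the 35 genes tested fell, 5 rose and 13 did not pass the test (edgeR quasi-likelihood test, Benjamini-Hochberg adjusted p under 0.05 over all genes tested). Over all 16149 genes tested, 22.8% were called lower and 29.9% higher, so the members' share of falls, 48.6%, was above that background and their share of rises, 14.3%, below it. In METTL7A embryos, 11 fell, 6 rose and 18 did not pass, against backgrounds of 17.1% lower and 23.1% higher. The members' median log2 fold change was -1.33 in Control and -0.66 in METTL7A, beside 0.18 and 0.04 for all genes tested. Both member medians stayed at these values when genes with a group at 0 were set to their bounds. The sign of the change was the same in both treatments for 29 of the 35, beside 80.2% of all genes tested. The 10 that fell in both treatments were CDH1, CTNNA1, CTNNB1, TJP1, CLDN12, PARD6A, LLGL1, LLGL2, CRB3 and PATJ, and JUP, CLDN6, F11R and WWTR1 rose in both. JUP, CLDN6 and TJP3 lay under the filter in both 2-cell groups, and PARD6G in METTL7A 8-cell embryos. They passed only through other groups, where they were higher, so their calls were not independent of the filter. These calls make 2 of the 5 Control rises, 3 of the 6 METTL7A rises and 1 of the 11 METTL7A falls, and are given as descriptions.

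**Figure D2:**
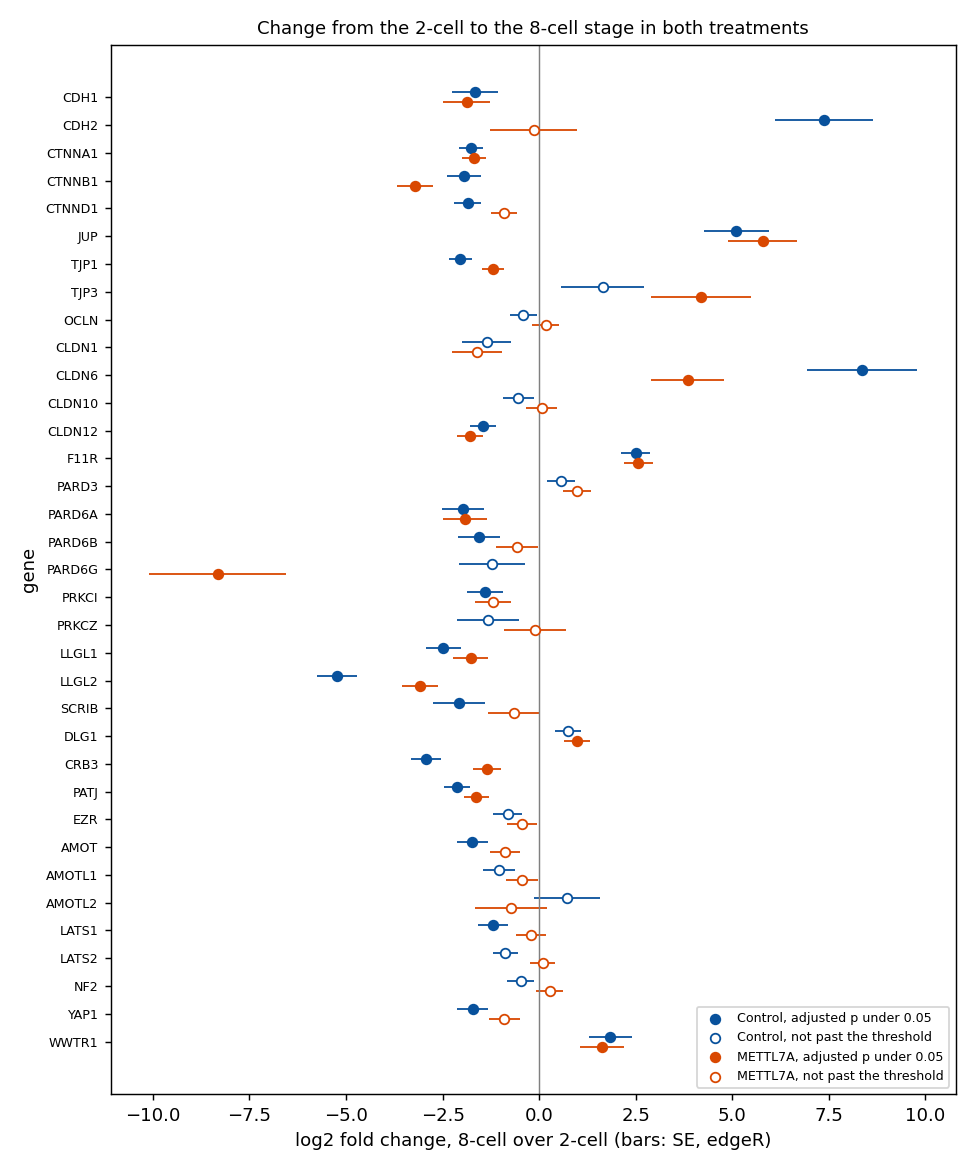
Log2 fold change from the 2-cell to the 8-cell stage for the 35 genes tested, in Control and METTL7A embryos (points, with SE as bars; filled where the adjusted p is under 0.05). Most points lie left of 0 in both treatments, and CDH2 shows the widest gap between them, at 7.39 in Control and -0.14 in METTL7A.

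Among the adhesion genes, all 6 changed in Control embryos, with 4 falling and 2 rising, and in METTL7A embryos 3 fell and 1 rose. These falls and rises are 66.7% and 33.3%, then 50% and 16.7%. All genes tested had 22.8% and 29.9%, then 17.1% and 23.1%. CDH1 encodes E-cadherin, the cadherin of compaction. It stood at 269 and 269 CPM in Control 2-cell embryos, 324 and 382 in METTL7A 2-cell embryos, 27.7 and 143 in Control 8-cell embryos and 83.3 and 110.1 in METTL7A 8-cell embryos. Every 8-cell library was below every 2-cell library, and Control 8-cell replicate 1 was far below its partner. Its log2 fold change with stage was -1.66 (SE 0.603, adjusted p = 0.043 by edgeR) in Control, -0.93 (adjusted p = 0.0136) without Control 8-cell replicate 1, and -1.87 (SE 0.607, adjusted p = 0.0351) in METTL7A.

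CTNNB1, CTNNA1 and CTNND1, catenins of the cadherin complex, also fell in Control. CTNNB1, beta-catenin, which also acts as a coactivator in Wnt signalling, stood at 620.3 and 618 CPM in Control 2-cell, 520.4 and 657 in METTL7A 2-cell, 238 and 85.1 in Control 8-cell and 60.9 and 66.1 in METTL7A 8-cell embryos. Both METTL7A 8-cell libraries and Control 8-cell replicate 2 lay close to each other, with Control 8-cell replicate 1 above them. The stage change was -1.94 (SE 0.445, adjusted p = 0.00604 by edgeR) in Control, -2.88 (adjusted p = 4.73e-05) without that library, and -3.21 (SE 0.469, adjusted p = 0.000818) in METTL7A. CTNNA1, alpha-catenin, the link to actin, stood at 604 and 584 CPM, then 365 and 563 with METTL7A, at the 2-cell stage, and at 189 and 159, then 153 and 137 with METTL7A, at the 8-cell stage. It changed by -1.77 on the log2 scale in Control (SE 0.308, adjusted p = 0.00154 by edgeR) and -1.68 in METTL7A (SE 0.307, adjusted p = 0.00263). CTNND1, p120-catenin, which stabilises cadherins at the membrane, stood at 186 and 188 CPM in Control 2-cell, 98.7 and 110.4 in METTL7A 2-cell, 34.9 and 68.8 in Control 8-cell and 56.5 and 54.5 in METTL7A 8-cell embryos. It was lower at the 8-cell stage in Control (log2 fold change -1.85, adjusted p = 0.00223 by edgeR), and its value in METTL7A, -0.91, did not pass (adjusted p = 0.0577).

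JUP and CDH2 moved the other way. JUP, plakoglobin, a catenin shared by adherens junctions and desmosomes, stood at 0.206 and 0.216 CPM in Control 2-cell, 0.0569 and 0.177 in METTL7A 2-cell, 10.3 and 4.81 in Control 8-cell and 3.55 and 10.7 in METTL7A 8-cell embryos. All 8-cell libraries exceeded all 2-cell libraries, and JUP rose by 5.11 (SE 0.834, adjusted p = 0.00115 by edgeR) in Control and 5.79 (SE 0.894, adjusted p = 0.0011) in METTL7A on the log2 scale. Without Control 8-cell replicate 1 the Control value was 4.45 (adjusted p = 0.0013). CDH2 encodes N-cadherin, the cadherin of mesenchymal, neural and granulosa cells. It stood at 0.825 and 1.21 CPM in Control 2-cell, 0.626 and 2.48 in METTL7A 2-cell, 287 and 56.4 in Control 8-cell and 2.73 and 0.0838 in METTL7A 8-cell embryos. Only the 2 Control 8-cell libraries were high, and the stage change was 7.39 (SE 1.27, adjusted p = 0.0015 by edgeR) in Control, 5.77 (adjusted p = 0.00121) without Control 8-cell replicate 1, and -0.14 (SE 1.12, adjusted p = 0.938) in METTL7A.

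Of the 8 tight junction genes tested, 2 rose and 2 fell in Control, and 3 rose and 2 fell in METTL7A. With 8 genes, the Control shares of 25% each way were near the 29.9% and 22.8% of all genes tested, and those in METTL7A, 37.5% and 25%, stood beside 23.1% and 17.1%. TJP1, the scaffold ZO-1, stood at 142 and 136 CPM in Control 2-cell, 77.4 and 107 in METTL7A 2-cell, 33.7 and 34.0 in Control 8-cell and 35.8 and 44.6 in METTL7A 8-cell embryos. It was lower in all 8-cell libraries, with changes of -2.04 on the log2 scale in Control (SE 0.292, adjusted p = 0.000627 by edgeR) and -1.2 in METTL7A (SE 0.286, adjusted p = 0.00941). CLDN12, an atypical claudin, stood at 71.1 and 69.9 CPM, then 107 and 98.0 with METTL7A, at the 2-cell stage, and at 19.4 and 32.2, then 34.6 and 25.0 with METTL7A, at the 8-cell stage. Its changes were -1.45 (adjusted p = 0.00602 by edgeR) in Control and -1.78 (adjusted p = 0.00309) in METTL7A.

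F11R encodes JAM-A, an immunoglobulin-type junction protein that recruits PARD3. It stood at 13.1 and 13.8 CPM in Control 2-cell, 15.4 and 15.2 in METTL7A 2-cell, 53.5 and 98.4 in Control 8-cell and 74.4 and 107 in METTL7A 8-cell embryos. F11R rose by 2.5 (SE 0.375, adjusted p = 0.000781 by edgeR) in Control and 2.57 (SE 0.376, adjusted p = 0.000834) in METTL7A on the log2 scale. CLDN6, a claudin of embryonic epithelia, had 0 counts in both Control 2-cell libraries, 0.398 and 0.0443 CPM in METTL7A 2-cell, 1.97 and 2.47 in Control 8-cell and 3.03 and 3.27 in METTL7A 8-cell embryos. The Control change was at least 34.9-fold upward, taking the 77 counts at the 8-cell stage against a floor of 3 counts over the 2-cell group (adjusted p = 0.00195 by edgeR), and the METTL7A change was 3.85 on the log2 scale (adjusted p = 0.0131). TJP3, the scaffold ZO-3, stood at 0.413 and 0.346 CPM in Control 2-cell, 0.171 and 0 in METTL7A 2-cell, 1.24 and 1.17 in Control 8-cell and 2.66 and 0.419 in METTL7A 8-cell embryos. It was called higher in METTL7A (adjusted p = 0.0296 by edgeR), where 41 counts stood against 3, a 21.5-fold ratio (exact 95% interval of the counts 6.87 to 109), and it was not called in Control, where it changed by 1.65 on the log2 scale (adjusted p = 0.223).

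The other tight junction genes tested were OCLN, CLDN1 and CLDN10, and none of the 3 was called between stages. OCLN, occludin, stood at 701 and 689 CPM in Control 2-cell, 974 and 872 in METTL7A 2-cell, 358 and 689 in Control 8-cell and 1053 and 1021 in METTL7A 8-cell embryos. Its lowest value was in Control 8-cell replicate 1, and its stage change was -0.41 (adjusted p = 0.345 by edgeR) in Control and 0.17 (adjusted p = 0.729) in METTL7A. CLDN1, a barrier-forming claudin, stood at a mean of 10.5 CPM ± 0.633 (SD, n = 2) in Control 2-cell embryos, 19.4 and 13.0 in METTL7A 2-cell, 2.13 and 6.05 in Control 8-cell and 8.05 and 2.60 in METTL7A 8-cell embryos, and its changes of -1.36 and -1.6 did not pass (adjusted p = 0.104 and 0.0777 by edgeR). CLDN10, an ion channel-forming claudin, stood at 53.4 and 47.7, then 49.4 and 34.5 with METTL7A, at the 2-cell stage, and at 24.1 and 45.5, then 54.6 and 33.8 with METTL7A, at the 8-cell stage, with changes of -0.54 and 0.07. Within Control, both genes were below their 2-cell range in each 8-cell library.

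Of the 13 polarity genes, 8 fell and 0 rose in Control, and in METTL7A 6 fell and 1 rose. These falls and rises are 61.5% and 0%, then 46.2% and 7.69%. All genes tested had 22.8% and 29.9%, then 17.1% and 23.1%. The largest fall in Control among the 35 genes was that of LLGL2, a basolateral Lgl protein that opposes atypical protein kinase C. It stood at 435 and 436 CPM in Control 2-cell, 96.5 and 205 in METTL7A 2-cell, 7.30 and 15.7 in Control 8-cell and 18.7 and 16.9 in METTL7A 8-cell embryos. LLGL2 was lower in every 8-cell library, with changes of -5.24 on the log2 scale in Control (SE 0.516, adjusted p = 0.000141 by edgeR) and -3.08 in METTL7A (SE 0.468, adjusted p = 0.00101). Its paralog LLGL1 stood at 17.2 and 16.9 CPM, then 6.20 and 9.47 with METTL7A, at the 2-cell stage, and at 3.59 and 2.52, then 2.59 and 2.01 with METTL7A, at the 8-cell stage. The changes were -2.48 (adjusted p = 0.00212 by edgeR) and -1.77 (adjusted p = 0.0139).

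Both Crumbs complex genes fell. CRB3, the transmembrane Crumbs protein of epithelia, stood at 30.0 and 30.2 CPM in Control 2-cell, 16.3 and 14.9 in METTL7A 2-cell, 3.26 and 4.64 in Control 8-cell and 6.28 and 5.95 in METTL7A 8-cell embryos, and changed by -2.93 (SE 0.39, adjusted p = 0.000445 by edgeR) and -1.35 (SE 0.371, adjusted p = 0.0176). PATJ, a scaffold of the same complex, stood at 271 and 259 CPM, then 167 and 262 with METTL7A, at the 2-cell stage, and at 46.9 and 75.4, then 69.0 and 70.7 with METTL7A, at the 8-cell stage. It changed by -2.12 (adjusted p = 0.00108 by edgeR) in Control and -1.62 (adjusted p = 0.00482) in METTL7A.

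In the PAR complex, the PAR6 adaptors and the kinase gene PRKCI declined in at least 1 treatment while the scaffold gene PARD3 was not called. PARD6A stood at 6.23 and 5.76 CPM in Control 2-cell, 3.87 and 3.05 in METTL7A 2-cell, 1.07 and 2.00 in Control 8-cell and 0.812 and 1.01 in METTL7A 8-cell embryos, a change of -1.97 (adjusted p = 0.0145 by edgeR) and -1.92 (adjusted p = 0.0245). PARD6B, the PAR6 protein best known from mouse trophectoderm, stood at 72.8 and 69.8 CPM, then 32.8 and 87.7 with METTL7A, at the 2-cell stage, and at 13.5 and 35.3, then 34.6 and 46.6 with METTL7A, at the 8-cell stage. The METTL7A libraries of the 2 stages overlapped, and PARD6B was called in Control (-1.55, adjusted p = 0.0383 by edgeR) and not in METTL7A (-0.57, adjusted p = 0.424). PARD6G stood at 4.54 and 4.24 CPM in Control 2-cell, 2.67 and 1.64 in METTL7A 2-cell, 3.31 and 0.470 in Control 8-cell embryos and 0 and 0 in METTL7A 8-cell embryos. With 84 counts at the METTL7A 2-cell stage and none at the 8-cell stage, PARD6G was at least 17.8-fold lower there (adjusted p = 0.0069 by edgeR), while its Control change was -1.21 (adjusted p = 0.262).

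PRKCI, an atypical protein kinase C, stood at 60.8 and 54.3 CPM in Control 2-cell, 55.4 and 58.7 in METTL7A 2-cell, 31.6 and 12.2 in Control 8-cell and 18.2 and 31.9 in METTL7A 8-cell embryos. Its change was -1.39 (adjusted p = 0.0307 by edgeR) in Control, -2.25 (adjusted p = 0.00117) without Control 8-cell replicate 1, and -1.19 (adjusted p = 0.0678) in METTL7A. PARD3, the scaffold of the complex, stood at 30.8 and 32.5 CPM, then 20.9 and 36.3 with METTL7A, at the 2-cell stage, and at 57.2 and 36.7, then 54.7 and 58.7 with METTL7A, at the 8-cell stage. All 8-cell libraries were above all 2-cell libraries, but the changes of 0.57 and 0.99 did not pass (adjusted p = 0.211 and 0.057 by edgeR). The second atypical kinase, PRKCZ, ranged from 1.07 to 8.09 CPM and was not called. Among the basolateral scaffolds, SCRIB stood at 3.42 and 3.63 CPM in Control 2-cell, 1.14 and 2.21 in METTL7A 2-cell, 0.505 and 1.17 in Control 8-cell and 1.03 and 1.09 in METTL7A 8-cell embryos. It fell in Control (-2.07, adjusted p = 0.0269 by edgeR), and its METTL7A value was -0.66 (adjusted p = 0.455). DLG1, its partner, stood at 69.0 and 78.5 CPM, then 54.6 and 68.5 with METTL7A, at the 2-cell stage, and at 154 and 94.8, then 98.9 and 144 with METTL7A, at the 8-cell stage. All 8-cell libraries were above all 2-cell ones, and DLG1 was called in METTL7A (0.98, adjusted p = 0.0434 by edgeR) and not in Control (0.75, adjusted p = 0.0844). EZR, ezrin, which ties the apical membrane to actin, stood at 2178 and 2105 CPM in Control 2-cell, 2669 and 2334 in METTL7A 2-cell, 813 and 1622 in Control 8-cell and 1593 and 2102 in METTL7A 8-cell embryos, and its changes of -0.81 and -0.44 did not pass (adjusted p = 0.0993 and 0.387 by edgeR).

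Among the 8 Hippo genes, 3 fell and 1 rose in Control, and 0 fell and 1 rose in METTL7A. These falls and rises are 37.5% and 12.5%, then 0% and 12.5%. All genes tested had 22.8% and 29.9%, then 17.1% and 23.1%. YAP1, the coactivator that the pathway restrains, stood at 56.5 and 62.0 CPM in Control 2-cell, 37.3 and 64.8 in METTL7A 2-cell, 16.8 and 19.2 in Control 8-cell and 19.1 and 35.5 in METTL7A 8-cell embryos. It fell in Control (-1.72, SE 0.403, adjusted p = 0.00668 by edgeR), and its METTL7A value was -0.9 (SE 0.396, adjusted p = 0.0977). WWTR1, its paralog TAZ, stood at 1.73 and 1.21 CPM, then 1.59 and 1.64 with METTL7A, at the 2-cell stage, and at 5.17 and 5.46, then 6.94 and 3.10 with METTL7A, at the 8-cell stage. All 8-cell libraries were higher, and the rises of 1.85 in Control and 1.63 in METTL7A passed (adjusted p = 0.0222 and 0.0459 by edgeR). The coactivator genes YAP1 and WWTR1 therefore changed in opposite directions in Control.

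AMOT, an angiomotin that holds YAP1 at junctions and activates LATS, stood at 122 and 117 CPM in Control 2-cell, 65.5 and 114 in METTL7A 2-cell, 24.3 and 48.2 in Control 8-cell and 44.3 and 53.4 in METTL7A 8-cell embryos. It fell in Control (-1.73, adjusted p = 0.00637 by edgeR), and its METTL7A value was -0.88 (adjusted p = 0.105). LATS1, a kinase that phosphorylates YAP1, stood at 37.2 and 38.1 CPM, then 27.9 and 43.8 with METTL7A, at the 2-cell stage, and at 14.4 and 18.5, then 23.0 and 39.0 with METTL7A, at the 8-cell stage. It fell in Control (-1.19, adjusted p = 0.0273 by edgeR), and the METTL7A libraries of both stages overlapped (-0.21, adjusted p = 0.687). The remaining 4 Hippo genes, LATS2, NF2, AMOTL1 and AMOTL2, were not called between stages, with log2 fold changes of -1.04 to 0.72 in Control and -0.72 to 0.28 in METTL7A. NF2, merlin, which recruits LATS to the membrane, stood at 14.8 and 16.8 CPM in Control 2-cell, 13.1 and 14.2 in METTL7A 2-cell, 12.1 and 10.5 in Control 8-cell and 16.7 and 16.4 in METTL7A 8-cell embryos. AMOTL1, an angiomotin relative of AMOT, stood at 35.3 and 37.2 CPM, then 16.7 and 25.4 with METTL7A, at the 2-cell stage, and at 23.5 and 11.9, then 13.2 and 17.8 with METTL7A, at the 8-cell stage. AMOTL2, the third angiomotin, ranged from 0.369 to 4.38 CPM, with its highest value in Control 8-cell replicate 1.

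Being called in one treatment and not in the other did not amount to a difference between treatments. The test of the difference itself, which is the same as a difference of the METTL7A effect between stages, called 0 of the 35 genes, beside 0.0124% of all genes tested, and the smallest adjusted p was 0.171, for CDH2 (edgeR). At an unadjusted p under 0.05 it held 5 members, beside 16% of all genes tested. DESeq2 called 3 members, CDH2, PARD6G and LLGL2, beside 6.3% of all genes it tested. Without Control 8-cell replicate 2, edgeR called 11 members, beside 26.1% of all genes tested.

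Single libraries carried part of the stage calls. Without either Control 2-cell library, the Control calls of CDH1, PARD6A, PARD6B, PRKCI, SCRIB, LATS1 and WWTR1 were lost, with adjusted p of 0.0746 to 0.203 (edgeR). Without Control 8-cell replicate 1, PARD6B (-1.03, adjusted p = 0.116), SCRIB (-1.6, adjusted p = 0.0546) and LATS1 (-1.04, adjusted p = 0.0558) were lost, and 21 members were called, beside 50.9% of all genes tested. Without Control 8-cell replicate 2, larger falls were seen in CDH1 (-3.33), AMOT (-2.35), PARD6B (-2.45), SCRIB (-2.84), CTNND1 (-2.47) and LLGL2 (-5.95), and 29 members were called, beside 61.6% of all genes tested. The log2 fold change of CDH2 was then 8.08. Leaving out a METTL7A library, which is in neither of the groups compared, ended the Control call of CDH1 in 4 of 4 cases, of PRKCI without either 2-cell library and of PARD6B without either 8-cell library, with adjusted p of 0.0522 to 0.0843.

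In METTL7A embryos, 10 of the 17 calls were lost and 7 remained in all without METTL7A 2-cell replicate 2, the lost genes being CDH1, TJP1, TJP3, CLDN6, PARD6A, LLGL1, DLG1, CRB3, PATJ and WWTR1 (adjusted p 0.0545 to 0.197 by edgeR). Without METTL7A 2-cell replicate 1, the calls of CDH1, CRB3, DLG1, PARD6A and WWTR1 were lost (adjusted p 0.0788 to 0.245). Without METTL7A 8-cell replicate 1, those of CDH1, CLDN6, CRB3, DLG1, PARD6A, TJP1, TJP3 and WWTR1 were lost (adjusted p 0.0514 to 0.291), with WWTR1 at 0.89. Without METTL7A 8-cell replicate 2, CDH1, CLDN6, CRB3, DLG1, LLGL1 and PARD6A were lost (adjusted p 0.0618 to 0.271). CTNNA1, CTNNB1, JUP, CLDN12, F11R, LLGL2 and PARD6G were called in METTL7A under every setting tried. CLDN12, CTNNA1, F11R, JUP and LLGL2 were also called in Control under every setting tried. The calls of JUP and PARD6G remain descriptions, since these genes passed the filter only through groups where they were higher. With library totals alone as the scaling, the median over all genes in METTL7A moved from 0.042 to -0.409, the calls over all genes went from 3733 higher and 2763 lower to 3000 higher and 4246 lower, and no member's called direction changed, while DLG1 (adjusted p = 0.238) and WWTR1 (adjusted p = 0.131) were no longer called.

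Between METTL7A and Control embryos at the 8-cell stage, 2 of the 35 genes were lower with METTL7A, 0 were higher and 33 did not pass. Over all genes tested, 4.55% were called lower and 0.737% higher, so the 5.71% of members called lower is near that background. With library totals alone, the calls over all genes moved from 119 higher and 735 lower to 52 higher and 1334 lower, and the median over all genes moved from 0.144 to -0.181. The members' median moved from 0.255 to -0.093, so the sign of that median depends on the scaling. Without Control 8-cell replicate 2, 12 members were called, 8 higher and 4 lower, beside 40.8% of all genes tested, and 0 were called without any 1 of the 4 METTL7A libraries. The 2 genes called were CDH2 and PARD6G, of which PARD6G lay under the filter in METTL7A 8-cell embryos.

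CDH2 was 287 and 56.4 CPM in Control and 2.73 and 0.0838 CPM in METTL7A 8-cell embryos. The groups did not overlap, and the difference was -6.89 on the log2 scale (SE 1.26, adjusted p = 0.0277 by edgeR), or -5.28 (adjusted p = 0.0293) without Control 8-cell replicate 1, where 2.2% of all genes tested were called. The call was lost without either METTL7A 8-cell library (-10.88 and -5.95, adjusted p = 0.172 and 0.308) and without either METTL7A 2-cell library (adjusted p = 0.0748 and 0.0739). Among the 8 libraries, CDH2 was high in the same 2 in which the summed matrix markers, at 5292 and 1057 CPM, and hypoblast markers, at 4041 and 530.0 CPM, were high. Most of the matrix sum was LUM, at 4782 and 667 CPM, while DCN and POSTN were lower in Control 8-cell replicate 1 than in replicate 2. Of the 10 matrix markers, 10 and 8 exceeded 1 CPM in these libraries, and 7 and 8 in the METTL7A 8-cell libraries, with 0 of 10 at 0 counts in any 8-cell library. Their part in the CDH2 result was not tested.

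**Figure D3:**
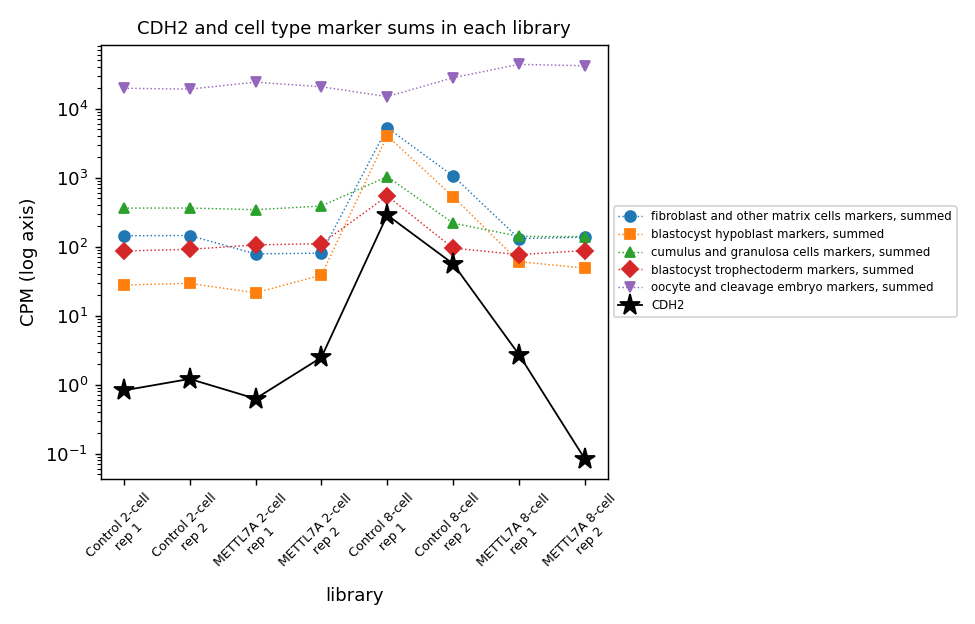
CDH2 (black stars) and the summed level of 5 cell type marker lists (other symbols) in each library, in CPM on a log axis. CDH2 and the matrix, hypoblast, cumulus and trophectoderm sums peak in Control 8-cell replicate 1, where the oocyte and cleavage sum is at its lowest.

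PARD6G passed the filter only through groups where it was higher than in METTL7A 8-cell embryos, so its call here is a description, like its METTL7A stage fall. PARD6G was 3.31 and 0.470 CPM in Control and 0 in both METTL7A 8-cell libraries. With 67 counts against none it was at least 16.3-fold lower (adjusted p = 0.0436 by edgeR), and without Control 8-cell replicate 1, which held most of those counts, at least 3.99-fold lower with the call lost (adjusted p = 0.0962). It was also lost without either METTL7A 8-cell library (adjusted p = 0.183 and 0.308), without either METTL7A 2-cell library (adjusted p = 0.103 and 0.102) and with the size factors of DESeq2 (adjusted p = 0.0507).

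Several genes that did not pass also showed no overlap between the 8-cell groups. LATS2, the second LATS kinase, was 39.1 and 37.0 CPM in Control 2-cell, 43.2 and 48.1 in METTL7A 2-cell, 15.8 and 25.9 in Control 8-cell and 54.5 and 42.5 in METTL7A 8-cell embryos, and its 8-cell log2 fold change was 1.22 (SE 0.338, adjusted p = 0.0657 by edgeR), or 0.9 (adjusted p = 0.14) without Control 8-cell replicate 1. The 8-cell values of LATS1, given above, corresponded to 0.91 (SE 0.384, adjusted p = 0.171), and those of OCLN to 0.99 (SE 0.349, adjusted p = 0.12), which became 0.58 without that library. For beta-catenin the value was -1.35 (SE 0.439, adjusted p = 0.0975), and -0.43 without that library, whose 238 CPM stood against 85.1 in its partner. In all, 8 members were higher and 5 lower with no overlap, beside 28.1% and 22.4% of all genes tested. DESeq2 called 5 members, with OCLN and LATS2 higher and CDH2, CTNNB1 and PARD6G lower, beside 14.5% of all genes it tested.

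**Figure D4:**
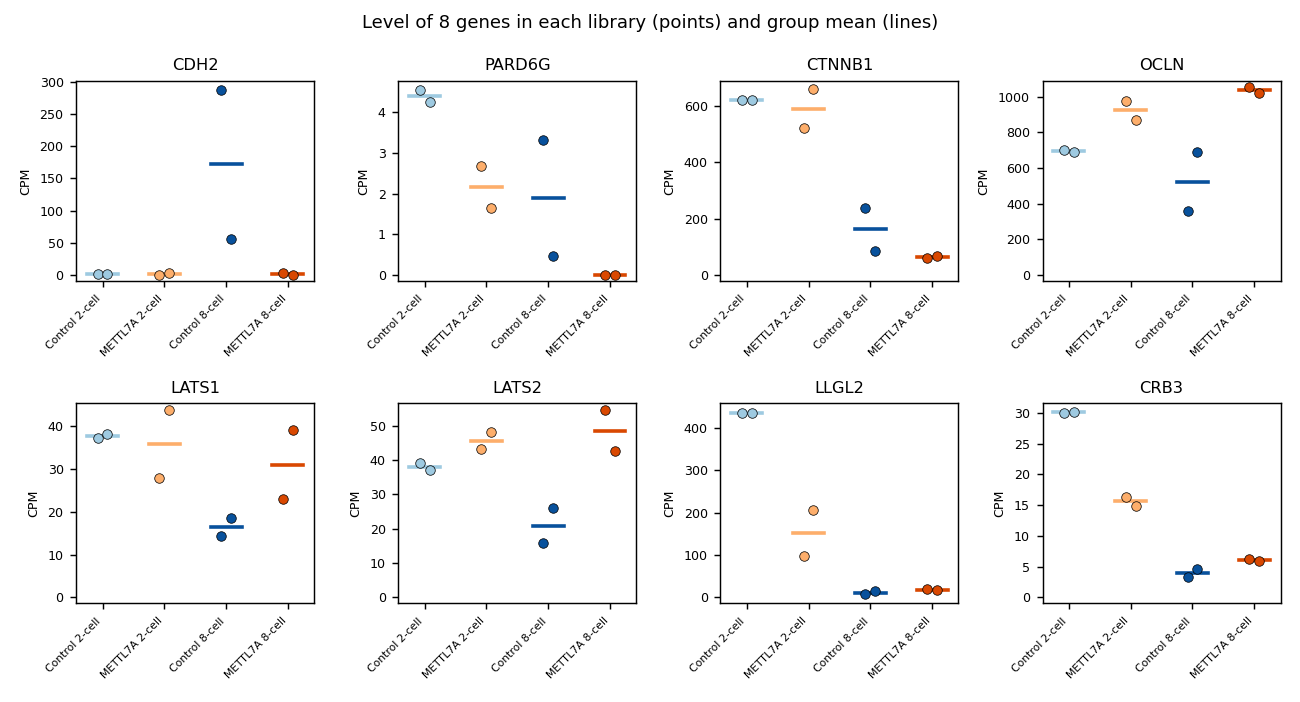
Level of 8 genes in each library (points) and the mean of each group (lines), in CPM on linear axes that differ between panels. LATS2 is lowest in the Control 8-cell libraries, and LLGL2 and CRB3 are highest in the Control 2-cell libraries, at 435 and 436 CPM for LLGL2.

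At the 2-cell stage, 0 of the 35 genes were called between METTL7A and Control embryos by edgeR, beside 0.0124% of all genes tested, and the smallest adjusted p among members was 0.486. DESeq2 called 0 members as well, beside 1.13% of the genes it tested, and 5 members had an unadjusted p under 0.05 in edgeR, beside 7.41% of all genes tested. These 5 were LLGL2, LLGL1, CRB3, CTNND1 and CLDN6. LLGL2 was 435 and 436 CPM in Control against 96.5 and 205 with METTL7A, a difference of -1.53 on the log2 scale (SE 0.438, adjusted p = 0.486 by edgeR). The 2 Control libraries were almost equal and the 2 injected ones differed from each other. CRB3, at 30.0 and 30.2 against 16.3 and 14.9 CPM, had a value of -0.95 (adjusted p = 0.615), LLGL1 of -1.12 (adjusted p = 0.627) and CTNND1 of -0.84 (adjusted p = 0.633). CLDN6 had 0 counts in Control against 8 with METTL7A, at least 3.14-fold more (adjusted p = 0.565). Of the 13 polarity genes, 12 had a fitted change below 0, with a median of -0.77 beside 0 for all genes tested. EZR was the 1 above 0, at 0.22. Over all genes tested, 7850 of 16149 were above 0. The 23 further polarity genes described below had 10 above 0 and a median of -0.21. In all, 17 members were lower and 8 higher with no overlap between groups, beside 30.5% and 26.9% of all genes tested. The count of 0 called depended on the setting. With no low-count filter edgeR called 1 member, LLGL2, beside 100 of all genes. With only the groups compared it called 2, CTNND1 and CRB3, beside 1005 of all genes. These members were lower with METTL7A.

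The wider pathways were described with 113 further genes, of which 97 were tested. With stage, 31 fell and 19 rose in Control, and 23 fell and 15 rose in METTL7A, which are 32% and 19.6%, then 23.7% and 15.5%, of those tested, beside 22.8% and 29.9%, then 17.1% and 23.1%, of all genes tested. Among the rises, 10 of 19 in Control and 7 of 15 in METTL7A were of genes that lay under the filter in every 2-cell library of that treatment. DSC2, DSC3, JAM2, TEAD4 and ANKRD1 lay under it in all 2-cell libraries. These 5 passed only through the 8-cell groups, where they were higher, so their calls are descriptions. PKP3 lay under it in both METTL7A groups and in Control 8-cell, and AXL in METTL7A 8-cell embryos, and their calls are descriptions too. Among 19 further adherens and desmosome genes, 6 rose and 5 fell in Control and 4 and 4 in METTL7A. These are 31.6% and 26.3%, then 21.1% each way, beside the same shares of all genes. The desmosomal cadherin DSC2 was 0.0825 and 0.130 CPM in Control 2-cell and 0.0569 and 0.177 in METTL7A 2-cell embryos, and 14.2 and 16.9, then 16.0 and 23.9 with METTL7A, at the 8-cell stage. It rose by 7.11 (adjusted p = 0.000102 by edgeR) in Control and 7.27 (adjusted p = 7.82e-05) in METTL7A on the log2 scale. DSC3, a second desmocollin, was at most 0.0865 CPM at the 2-cell stage and 10.3 to 34.8 CPM at the 8-cell stage, and was called in both treatments (adjusted p = 0.000363 and 0.000298). P-cadherin (CDH3) went the other way, from 440.1 and 455 CPM to 18.9 and 42.3 in Control (-3.87, adjusted p = 0.000295) and from 209 and 376 to 47.8 and 55.6 in METTL7A (-2.5, adjusted p = 0.00214). PLEKHA7, an adherens junction protein that binds p120-catenin, fell in Control and METTL7A (-2.77 and -1.77, adjusted p = 0.000295 and 0.00257). PKP3, plakophilin 3, was 0 in all 4 8-cell libraries after 1.11 and 1.04 CPM in Control and 0.228 and 0.443 in METTL7A 2-cell embryos (adjusted p = 0.00673 and 0.0443). Its METTL7A call was lost when any 1 of the 2-cell or METTL7A libraries was left out (adjusted p 0.102 to 0.195), and its Control call without Control 2-cell replicate 1 (adjusted p = 0.0528).

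Among 17 further tight junction genes, 2 rose and 5 fell in Control and 4 rose and 5 fell in METTL7A. These rises and falls are 11.8% and 29.4%, then 23.5% and 29.4%. All genes tested had 29.9% and 22.8%, then 23.1% and 17.1%. CXADR, an immunoglobulin-type junction protein, was 8.05 and 8.01 CPM, then 8.53 and 9.12 with METTL7A, at the 2-cell stage, and 73.5 and 115, then 174 and 291 with METTL7A, at the 8-cell stage. It rose by 3.55 (adjusted p = 0.000181 by edgeR) and 4.72 (adjusted p = 6.38e-05) on the log2 scale. JAM2, a relative of F11R, was at most 0.248 CPM at the 2-cell stage and 13.6 to 46.9 CPM at the 8-cell stage (adjusted p = 0.00068 and 0.000617). SYMPK, symplekin, fell in both treatments (-3.45 and -2.11, adjusted p = 0.000224 and 0.00213). MARVELD3 fell in Control (-3.27, adjusted p = 0.00208), and CGN, cingulin, fell in METTL7A (-3.61, adjusted p = 0.00583), though not without METTL7A 8-cell replicate 2 (adjusted p = 0.0546). MAGI1, a scaffold, rose in METTL7A (0.91, adjusted p = 0.033), a call lost without any 1 of the 2-cell libraries or METTL7A 8-cell replicate 2 (adjusted p 0.112 to 0.245).

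Of 23 further polarity genes, 9 fell and 3 rose in Control and 6 fell and 1 rose in METTL7A, which are 39.1% and 13%, then 26.1% and 4.35%, beside the shares of all genes given above. VANGL1, a planar polarity protein, was 113 and 119.6 CPM, then 97.2 and 104 with METTL7A, at the 2-cell stage, and 19.9 and 29.8, then 30.2 and 30.2 with METTL7A, at the 8-cell stage. Its changes were -2.22 (adjusted p = 0.00047 by edgeR) and -1.73 (adjusted p = 0.0018). STK11, the polarity kinase LKB1, fell in both treatments (-3.9 and -2.79, adjusted p = 0.00134 and 0.00714), and the METTL7A call was lost without METTL7A 2-cell replicate 2 (-1.59, adjusted p = 0.0769) and without either METTL7A 8-cell library (adjusted p = 0.0638 and 0.0826). DLG5 fell in Control (-2.72, adjusted p = 0.000288) and DLG2 in METTL7A (-1.1, adjusted p = 0.0429). CDC42, the small GTPase that binds PAR6, rose in Control (1.42, adjusted p = 0.00448), and ERBIN rose in METTL7A (1.36, adjusted p = 0.00451). CDC42 was lost without either Control 2-cell library (adjusted p = 0.0517 and 0.0558), ERBIN without METTL7A 2-cell replicate 1 (adjusted p = 0.0607), and DLG2 without any 1 library other than those of Control 8-cell (adjusted p 0.0557 to 0.213). LIN7B (1.66, adjusted p = 0.0311) and MARK1 (2.63, adjusted p = 0.032) were called higher in Control, but without Control 8-cell replicate 1 they were at 1.04 (adjusted p = 0.1) and 0.56 (adjusted p = 0.495), and without any 1 of the 2-cell libraries neither was called (adjusted p 0.0527 to 0.175). MARK1 was also not called without either METTL7A 8-cell library (adjusted p = 0.0581 and 0.0585).

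Of 26 further Hippo genes, 6 rose and 7 fell in Control and 5 rose and 4 fell in METTL7A. These rises and falls are 23.1% and 26.9%, then 19.2% and 15.4%. They are near the shares of all genes tested, 29.9% and 22.8%, then 23.1% and 17.1%. TEAD4, the DNA-binding partner of YAP1 in trophectoderm, was at most 0.0825 CPM at the 2-cell stage and 4.60 and 2.41 in Control and 3.47 and 1.26 in METTL7A at the 8-cell stage, and rose by 6.17 (adjusted p = 0.00179 by edgeR) and 5.39 (adjusted p = 0.00455). ANKRD1, a target gene of YAP1 in many cell types, was 0.124 to 0.310 CPM in all 2-cell libraries, 250.3 and 65.1 in Control 8-cell and 12.3 and 17.3 in METTL7A 8-cell embryos. It rose by 9.81 (adjusted p = 9.37e-05) and by 5.73 (adjusted p = 0.000449). AJUBA, a LIM protein that inhibits LATS, fell in both treatments (-2.63 and -1.74, adjusted p = 0.000197 and 0.00126), and VGLL4, a competitor of YAP1 for TEAD proteins, fell as well (-2.69 and -1.78, adjusted p = 0.000423 and 0.00326). PTPN14, a phosphatase that binds YAP1, fell in Control (-3.42, adjusted p = 0.000423). In METTL7A, the kinase TAOK3 fell (-1.38, adjusted p = 0.00308) and WWC1, KIBRA, an activator of LATS, rose (2.44, adjusted p = 0.00465). Without METTL7A 2-cell replicate 2, the METTL7A calls of TEAD4 (adjusted p = 0.0629) and WWC1 (adjusted p = 0.0591) were lost.

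In the list of ERM and gap junction genes, 2 of 12 rose and 5 fell in Control, and 1 rose and 4 fell in METTL7A. These rises and falls are 16.7% and 41.7%, then 8.33% and 33.3%. All genes tested had 29.9% and 22.8%, then 23.1% and 17.1%. NHERF1, which binds ezrin, fell in both treatments (-2.43 and -3.36, adjusted p = 0.00146 and 0.000459 by edgeR). So did PODXL, an apical sialomucin (-3.04 and -2, adjusted p = 0.000471 and 0.00362), and the channel gene PANX1 (-2.78 and -2.08, adjusted p = 0.000191 and 0.000652). MSN, moesin, was called higher in Control (1.78, adjusted p = 0.0298), but not without Control 8-cell replicate 1 (0.68, adjusted p = 0.241) or any 1 of the 2-cell libraries (adjusted p 0.0544 to 0.123).

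Between treatments, 2 of the 97 further genes were called higher and 3 lower with METTL7A at the 8-cell stage by edgeR, and 0 at the 2-cell stage. The 8-cell shares of 2.06% and 3.09% stood beside 0.737% and 4.55% of all genes tested, so the 5 genes are given for their own values and not as a result about the lists. EPCAM, an epithelial adhesion molecule, was 14.9 and 34.2 CPM in Control and 75.5 and 111 in METTL7A 8-cell embryos, and was higher by 1.93 on the log2 scale (adjusted p = 0.0388), or 1.44 (adjusted p = 0.0493) without Control 8-cell replicate 1. MAGI1 was 58.8 and 54.6 CPM against 124 and 185, higher by 1.44 (adjusted p = 0.0343). ANKRD1 was lower with METTL7A by the values given above (-3.41, adjusted p = 0.0256), and stayed called without Control 8-cell replicate 1 (-2.14, adjusted p = 0.0131). AXL, a receptor kinase and YAP1 target, was 30.7 and 4.05 CPM against 0.443 and 0.168 (-5.78, adjusted p = 0.0269), and NECTIN2, a nectin, 27.0 and 5.22 CPM against 0.222 and 1.01 (-4.72, adjusted p = 0.0426). Both were lost without that library, at -3.68 (adjusted p = 0.0542) and -3.1 (adjusted p = 0.143). All 5 calls were lost without any 1 of the 4 METTL7A libraries (adjusted p 0.0764 to 0.308), and that of MAGI1 also without either Control 2-cell library (adjusted p = 0.0669 and 0.0667). NECTIN2 had at most 12 counts in any library outside Control 8-cell. It passed the filter through Control 8-cell, where it was high, so its call is a description, like that of AXL. ANKRD1, AXL and NECTIN2 were highest in Control 8-cell replicate 1. That library had the highest matrix, hypoblast, cumulus, trophectoderm, and epiblast and inner cell mass marker sums, and the part of these markers was not tested.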

How the data were processed

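Per the labels' protocols, cDNA was made from embryos without RNA extraction (SMART-Seq v4) and tagmented into Nextera XT libraries. These kits keep no strand, and reads of antisense genes cannot be separated. Trim Galore 0.6.10, FastQC, STAR 2.7.11b, Subread 2.0.6 and DESeq2 1.44.0 were used, per the submitters' processing notes. Neither genome build nor annotation is named in the sources used here. The authors deposited whole-number read counts per gene, not normalized. An entry that names no gene, 0.184% to 0.95% of a library's counts, was left out. Columns belonging to no sample numbered 0. Since the labels do not state separate cultures or embryo pools for replicates, p-values cover the spread between these libraries only, and that spread may be technical. The pair of Control 2-cell libraries differed least (chi-square over degrees of freedom 2.475, and 45.47 to 330.1 in the other pairs) but by more than counting noise, and were kept as 2 samples.

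The counts were fitted with edgeR 4.0.16 under R 4.3.3 as 1 coefficient per group over the 8 libraries, with TMM factors, filterByExpr (minimum count 10, minimum total 15) and the robust quasi-likelihood test, 2-sided. Adjusted p-values are Benjamini-Hochberg over the 16149 genes tested, with a threshold of 0.05. The fit was run on simulated counts drawn with 1 spread per gene for all 8 libraries. That simulation cannot test the effect of the unequal spread between the pairs of libraries. DESeq2 1.42.0, other size factors, no filter, the compared groups alone, a replicate block, the Control 2-cell libraries summed, METTL7A and LOC781439 left out, and each library left out were the alternatives. Scaling by library totals alone was added after seeing the data. Where a group had 0 counts, the fold is a bound against 3 counts over the group. Intervals and floors cover counting error only. Genes were matched by symbol, 7 of them by older names. Members and lists were chosen with earlier results of these data known. Members called in any comparison are described with every library's value, uncalled ones by counts and ranges (the 8 with the highest mean counts by values), and each further list by up to 3 called genes per direction and comparison, smallest adjusted p first. Some genes that this rule names are not reported here.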

Additional observations from a re-analysis of the deposited data

How the results depend on the processing

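No called member changed direction under any setting tried, while calls did move. Of the 22 Control and 17 METTL7A stage calls, 14 and 7 were kept in every setting, and 0 of the 2 calls between treatments in 8-cell embryos. The kept calls include JUP and CLDN6 in Control and JUP and PARD6G in METTL7A, which are descriptions because of the filter. At the 2-cell stage 1 member was called with no low-count filter (LLGL2) and 2 with only the groups compared (CTNND1 and CRB3), and 0 to 0 with a library left out. Between treatments in 8-cell embryos 1 was called with DESeq2's size factors, 5 with DESeq2 and 1 with only the groups compared, and 0 to 12 with a library left out, 12 without Control 8-cell replicate 2. Stage calls ran from 15 to 29 in Control and from 7 to 23 in METTL7A with a library left out. For the difference of the effect between stages, 3 were called with DESeq2 and 3 with no filter, and 0 to 11 with a library left out, 11 without Control 8-cell replicate 2. A group left with 1 library is assumed to vary like the others. Over all genes, the 2-cell treatment comparison went from 2 calls to 142 with DESeq2, 100 with no filter, 1005 with only the groups compared, 0 without METTL7A and LOC781439, and 2 to 50 with a library left out. The 8-cell treatment comparison went from 854 to 2354, 2767 and 283 under the first 3 of these, 1386 with library totals alone and 2 to 7129 with a library left out. The 8516 stage calls in Control became 5404 with the Control 2-cell libraries summed and 5127 to 10759 with a library left out, and the 6496 in METTL7A 3276 to 9149. The 2 for the difference became 909 with DESeq2, 1354 with no filter, 24 with the block, 1 with DESeq2's size factors or without METTL7A and LOC781439, 0 with the Control 2-cell libraries summed and 0 to 4568 with a library left out. The cause was not tested. Without METTL7A and LOC781439, calls over all genes for stage in METTL7A were 47.5% higher, against 57.5%. Same-numbered libraries showed no shared deviation (correlations -0.0275 to 0.0586). The labels state no pairing, and these correlations cannot exclude one, since the Control 2-cell libraries hardly differed from each other. With the replicate block, 0, 2, 22, 16 and 0 members were called in the 5 comparisons, beside 2, 1083, 8296, 6462 and 24 of all genes. With DESeq2's size factors, 605 of all genes were called between treatments in 8-cell embryos, beside the 1 member given above. Genes near the filter, such as CLDN3, CLDN4 and CLDN7, cannot be compared at this depth.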
